A study of Drosophila melanogaster with 14 samples.

Results

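Chromatin stretches that were bound to the nuclear lamina (NL) in spermatocytes (SpCs) but not in spermatogonia (SpG) were collected from the lamina-associated domains (LADs) of both stages. A SpC LAD on the autosomal arms 2L, 2R, 3L or 3R was counted as gained if it was at least 900 bp long, which is 3 bins of 300 bp, and if SpG LADs covered less than 10% of its length. By this rule 398 of the 4488 SpC LADs of the same arms and lengths were gained. Throughout, they are set beside 2223 constant LADs, which are SpC LADs covered by SpG LADs to at least 90%, and beside 2459 lost LADs, which are SpG LADs covered by SpC LADs to less than 10%. Gained LADs were thus chosen by the LAD calls of both stages, so that their number, length and position are a description without a test.

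LADs were mapped by Lam-DamID, in which the bacterial methyltransferase Dam fused to Lam Dm0 marks DNA near the NL and Dam alone records how accessible the DNA is. Dam-Lam and Dam were profiled at each stage in 2 biological replicates, from about 200 testes and with 41000000 to 52000000 reads per library, and the authors merged the replicates before calling LADs. SpCs came from larval testes at the third instar with pUAST-attB-LT3-Dam-Lam (or Dam in its place) driven by bam-Gal4-VP16, a driver that starts in late SpG and is strongest in early and middle SpCs. SpG came from adult testes homozygous for bamdelta86, which hold mainly cells like SpG, with Dam-Lam or Dam behind the loxP-stop-loxP cassette of a pUAST-attB-hsp70 construct, and with nos-Cre, which removes the stop cassette in the germline. All DamID constructs were inserted at attP40 on chromosome 2. Larval testes also hold some SpG. Stage, age of the fly, construct, driver and the bamdelta86 mutation differed together, so a gain cannot be assigned to one of them, and a short gap in a LAD list can be a stretch of bins without Dam reads, over which the authors' algorithm did not join LADs. Expression came from 3 libraries of Lam-KD larval testes (UAS-LamDm0-RNAi and 1 copy of UAS-LamC-RNAi, both driven by bam-Gal4-VP16) and 3 control libraries of larval testes that carried bam-Gal4-VP16 alone. Their RNA is that of the whole testis, somatic cells included.

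The NL is a meshwork of lamins under the inner nuclear membrane. LADs hold mostly silent or weakly expressed genes, and promoters of active genes usually lie between LADs, in inter-LADs. During the growth of SpCs many testis-specific genes start to be transcribed, a large group of them under control of Aly, a subunit of the testis-specific meiotic arrest complex.

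Gained LADs were few and short. They made up 8.87% of the SpC LADs by number but 1.45 Mb, or 3.55%, of their 40.9 Mb. Their median length was 2.7 kb with quartiles of 1.5 and 4.5 kb, against 5.7 kb with quartiles of 3.0 and 11.1 kb for constant LADs. Only 92 gained LADs (23.1%) were over 5 kb and 17 (4.27%) over 10 kb, whereas 55.6% of constant LADs were over 5 kb and 28.5% over 10 kb. Gained LADs had instead the length of lost LADs, whose median was also 2.7 kb with quartiles of 1.5 and 4.8 kb. Both sets were chosen by coverage under 10%, which a short LAD meets more readily, so their short length is partly set by the rule. Among the SpC LADs of 300 and 600 bp, which the length limit leaves out, 37.1% had coverage under 10%. At the short end, 49 gained LADs (12.3%) were 900 bp long, the shortest length that the rule allowed.

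**Figure D1:**
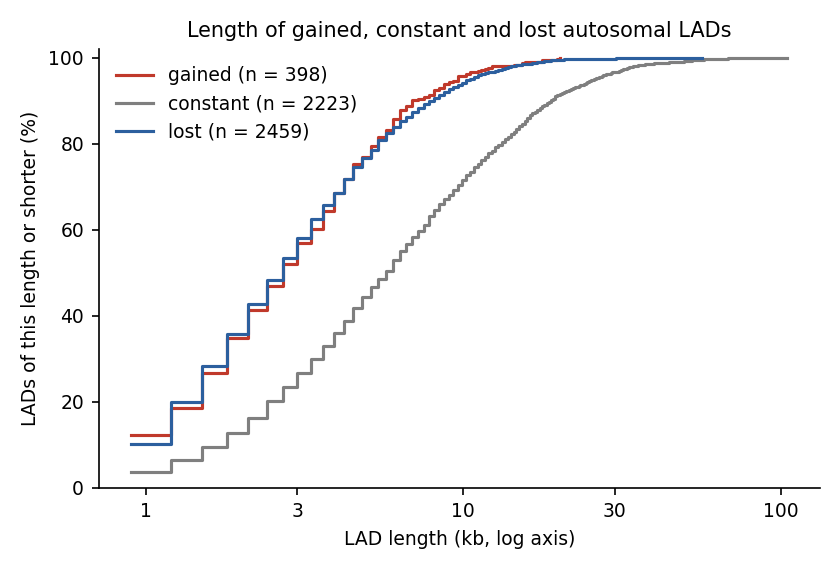
Cumulative share (%) of gained (n = 398), constant (n = 2223) and lost (n = 2459) autosomal LADs by length in kb, on a log axis. The curves of gained and lost LADs run close together with a median of 2.7 kb each, and the curve of constant LADs lies to the right with a median of 5.7 kb.

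Of the 398 gained LADs, 369 (92.7%) had no base in a SpG LAD and 29 were covered in part. Nearest to the limit inside were 3 gained LADs of 3.3 kb with 1 covered bin each (9.09%), at 2L:5345101-5348400, 3L:9638701-9642000 and 3R:2117101-2120400 (coordinates on dm3/R5), and 1 of 10.2 kb at 2L:18815401-18825600 (8.82%). Just outside were 3 SpC LADs covered to exactly 10.0%, at 2L:10452601-10470600, 3L:8217301-8220300 and 3L:23992801-23995800, and 1 covered to 10.5%, at 3L:19647001-19652700.

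The longest gained LADs of 3L were 3L:11566501-11586600 with 20.1 kb and 3L:11965501-11985300 with 19.8 kb, and both were covered by SpG LADs in part (7.46% and 7.58%). The third, 3L:23438101-23453700 with 15.6 kb, was not covered and filled 65.0% of the SpG inter-LAD around it. On 3R, 3R:4211101-4228800 and 3R:7803001-7820700 spanned 17.7 kb each and 3R:16545601-16560900 spanned 15.3 kb. On 2R the longest were 2R:1369501-1384800 with 15.3 kb, 2R:948901-961200 with 12.3 kb and 2R:1359601-1369200 with 9.6 kb, of which the first and the third lie 300 bp apart. On 2L, 2L:11832601-11844300 spanned 11.7 kb, and 2L:7641901-7652400 and 2L:14840401-14850900 spanned 10.5 kb each. The 3 longest of 2R therefore lay within the part of the arm next to the centromere, whereas those of 2L and 3R lay far from it.

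Many gained LADs lay close to a SpG LAD. SpG LADs covered 51.0% of these arms, with a median of 2100 bp between them, so short distances are no sign of a preference. Among the 369 without any covered base, 52 directly abutted a SpG LAD, 30 were a single bin of 300 bp away from one, and 163 in all were within 1200 bp. The median distance to the nearest SpG LAD was 1.8 kb, with quartiles of 0.6 and 5.1 kb. On the other side of the range, 96 gained LADs were more than 5 kb and 47 more than 10 kb from any SpG LAD, up to 69.6 kb. Lost LADs lay farther from the LADs of the other stage, with a median of 8.4 kb to the nearest SpC LAD and quartiles of 2.7 and 20.4 kb. SpC LADs covered less of the arms (42.7%), and the part of this in the longer distances was not tested. Only 29 of the 369 had a SpG LAD within 1200 bp on both sides.

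The SpG inter-LADs in which gained LADs appeared were long. Their median length was 14.4 kb counted once for each of the 369 gained LADs, with quartiles of 7.5 and 27.3 kb, against 3.9 kb for all 5640 SpG inter-LADs of at least 900 bp on these arms. A longer inter-LAD has more room for a LAD, so these lengths are no sign of a preference. A gained LAD took up a median of 19.6% of its inter-LAD, with quartiles of 8.33% and 34.3%, and only 52 took up more than 50% and 11 more than 80%. For most gained LADs the larger part of the inter-LAD thus stayed outside them.

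Average profiles around the LAD centres show the same arrangement. At the centre of gained LADs the SpG coverage was 0%, and the rule allows only little there. At 3 kb on either side SpG coverage was already 26.6% and 23.9%. At 15 kb on either side it was 43.2% and 39.9%, below the 51.0% of the whole arms. SpC coverage at 15 kb on either side of the centres of gained LADs was 44.2% and 39.4%, close to the 42.7% of the whole arms. At 3 kb it was 39.4% and 40.7%. The values at 3 kb include the longer gained LADs themselves, as only 85.7% of gained LADs were 6.0 kb or shorter. Around lost LADs the picture was not a mirror image, since SpC coverage was 9.03% and 10.2% at 3 kb and still only 27.5% and 29.1% at 15 kb. Lost LADs therefore lay in wide stretches with little SpC coverage, and gained LADs lay among other LADs of both stages.

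**Figure D2:**
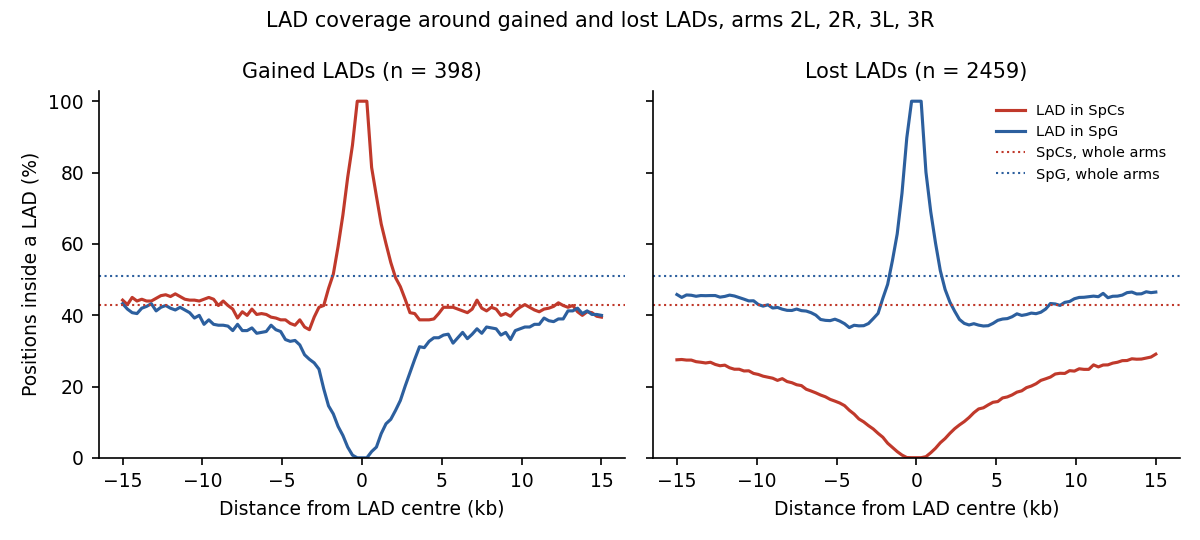
Percent of positions inside a LAD of SpCs (red) or SpG (blue) by distance in kb from the centres of gained LADs (left, n = 398) and lost LADs (right, n = 2459), with dotted lines for the whole arms (42.7% in SpCs and 51.0% in SpG). SpG coverage around gained LADs returns to 43.2% and 39.9% at 15 kb on either side, whereas SpC coverage around lost LADs reaches only 27.5% and 29.1% there.

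Gained LADs often had another SpC LAD close by. The nearest other SpC LAD was at a median of 0.9 kb, and for 223 gained LADs (56.0%) it was within 1200 bp, against 64.3% of constant LADs. For 164 of the gained LADs the gap was a single bin. Since an unfilled gap of 1 bin splits a LAD into 2, these LADs can be pieces of a longer domain. When LADs of each stage up to 300 bp apart were joined before the rule was applied, 283 gained LADs were found, and 291 of the 398 (73.1%) lay inside one of them. With a joining distance of 1200 bp the rule gave 226 gained LADs, which held 246 (61.8%) of the 398. The others then lay in joined SpC LADs that joined SpG LADs covered to 10% or more.

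The arms differed in how many gained LADs they held. There were 148 on 3L (6.05 per Mb), 107 on 2L (4.66 per Mb), 89 on 3R (3.19 per Mb) and 54 on 2R (2.56 per Mb). They summed to 549.3 kb on 3L, 408.3 kb on 2L, 315.0 kb on 3R and 178.5 kb on 2R, with median lengths between 2.4 kb on 3R and 3.0 kb on 2L. Lost LADs were spread more evenly, with 19.8 to 30.3 per Mb.

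Within the arms, gained LADs were concentrated next to the centromeres of 2L and 3L. In the 1 Mb at the centromere-proximal end of the mapped arm, 31 of 43 SpC LADs of 3L (72.1%) were gained, against 117 of 1092 (10.7%) in the rest of 3L. On 2L these numbers were 17 of 25 (68.0%) against 90 of 987 (9.12%), and on 2R 9 of 31 (29.0%) against 45 of 978 (4.60%). The arm 3R differed, as none of the 45 SpC LADs in its proximal 1 Mb was gained, against 89 of 1287 (6.92%) in its rest. The difference between these 3 arms and 3R remained when LADs were joined or SpG LADs were widened by 1 bin on each side, under which 60.0% to 66.7% of the proximal SpC LADs of 2L, 68.4% to 76.1% of those of 3L, 25.8% to 42.1% of those of 2R and 0% of those of 3R were gained. Lost LADs also took larger shares of the proximal 1 Mb of 2L and 3L, with 16 of 28 SpG LADs lost on 2L (57.1%, against 40.0% on the whole arm) and 9 of 18 on 3L (50%, against 36.9%). On 2R it was 12 of 39 (30.8%, against 28.3%) and on 3R 24 of 68 (35.3%, against 32.8%). SpG LADs were thus few in the proximal 1 Mb of 2L, 3L and 2R, with 28, 18 and 39, compared with 68 on 3R. The whole arms 2L, 3L, 2R and 3R held 1739, 1750, 1474 and 2139 SpG LADs over 21.1 to 27.9 Mb each. A SpC LAD meets the coverage rule more readily where SpG LADs are few, and the part of this in the proximal shares was not tested.

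The 57 gained LADs of the proximal windows had a median length of 3.3 kb and made up 231.0 kb, or 15.9% of the gained length, and the remaining 341 had a median of 2.7 kb. The neighbouring window of 3L also held many, with 17 of 40 SpC LADs gained (42.5%). Far from the centromere, the window of 3L between 12 and 13 Mb from its proximal end held 13 gained LADs of 48 SpC LADs (27.1%). These 4 windows, with 10 or more gained LADs each, held 78 of the 398, and the median over all 98 windows was 3. Sequence next to centromeres is rich in repeats, where unique reads are scarce. The number of reads per bin was not analysed here, so its part in these values was not tested.

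**Figure D3:**
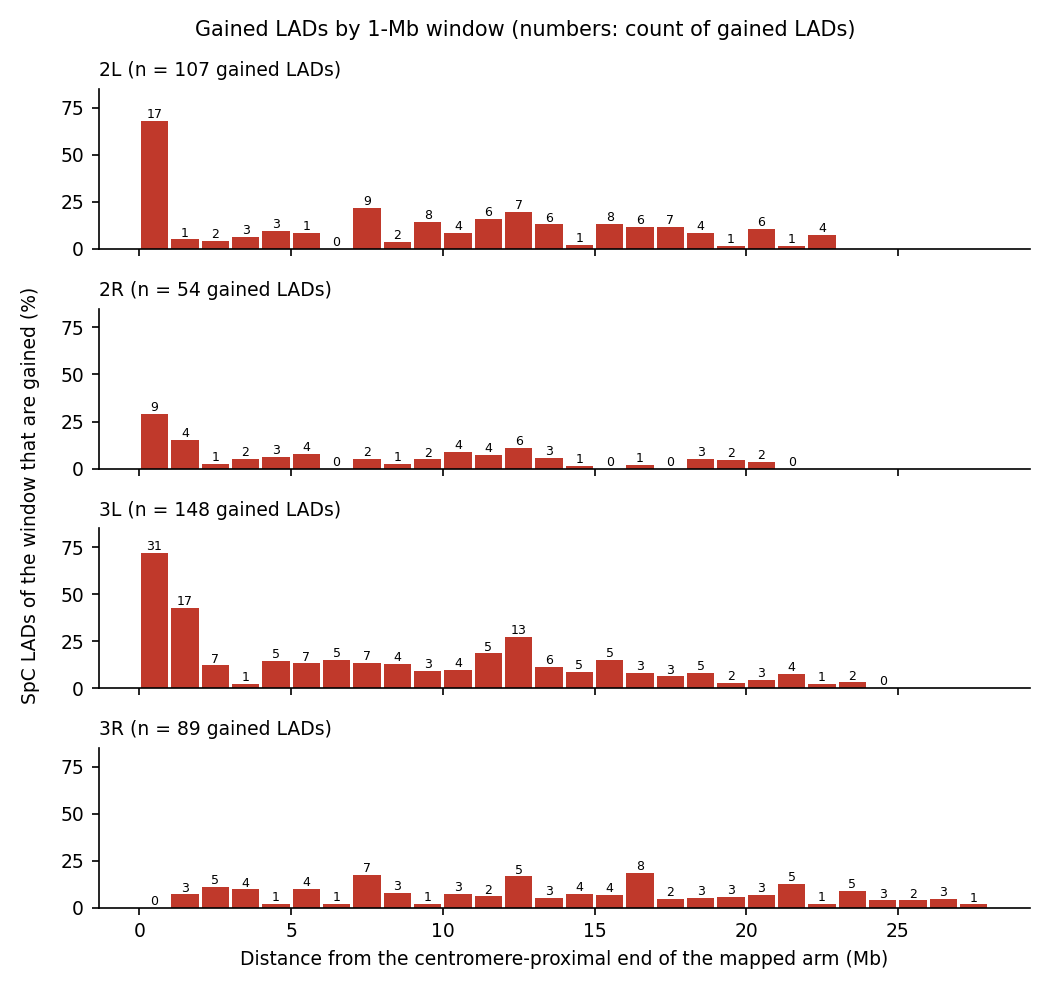
Share (%) of SpC LADs that were gained in windows of 1 Mb, by distance in Mb from the centromere-proximal end of the mapped arm, with the number of gained LADs above each bar. The share reaches 68.0% and 72.1% in the proximal windows of 2L and 3L, 29.0% on 2R and 0% on 3R.

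Several gained LADs could share a SpG inter-LAD. The 369 lay in 298 inter-LADs, or 5.28% of the 5640, and 254 of these held 1 gained LAD while 44 held 2 or more, with 115 gained LADs together. The inter-LAD with most was 3L:23594101-23838000, 243.9 kb long, with 8 gained LADs that filled 41.7 kb (17.1%). It was followed by 3L:24111601-24297600 with 6 in 186.0 kb, and by 3L:23472601-23540700 and 2R:196501-363300 with 5 each. All of these lie near the centromere. In shorter inter-LADs gained LADs took up more of the length. On 3L 4 gained LADs took up 63.2% of the 20.4 kb of 3L:23389501-23409900, and on 2L 4 gained LADs took up 42.7% of the 35.1 kb of 2L:22537201-22572300.

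Genes could be assigned on 2L up to 16.7 Mb, the only part of the study's gene table that was available here. It gives transcription start sites (TSSs) on dm3/R5 for 1998 genes. Of the 107 gained LADs of 2L, 80 lay in this stretch. The proximal 1 Mb of 2L and all of 2R, 3L and 3R are therefore absent from the results on genes in gained LADs. In 27 of them (33.8%) there was at least 1 TSS, 27 lay inside the span of a gene without any TSS, 3 overlapped a gene in part, and 23 (28.8%) touched no gene. The 27 gained LADs held the TSSs of 41 genes. This gave 138 TSSs per Mb of gained LAD, against 68.3 in constant LADs, 59.0 in lost LADs and 119 over the whole stretch. A single gained LAD held 9 TSSs, and without it the density was 112 per Mb. A TSS was found in 30.5% of constant LADs and 16.8% of lost LADs of the stretch.

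The gained LAD with 9 TSSs was also the longest of 2L, 2L:11832601-11844300, and lay inside the 114-kb span of Pde1c, which encodes a phosphodiesterase of cyclic nucleotides. It held Sfp33A2, Sfp33A3 and Sfp33A4, which encode seminal fluid proteins, together with CG45011, CG45012, CG31704, CG44008, CG14933 and CG42486. CG45011, CG45012, Sfp33A3, Sfp33A4 and CG31704 were at 0 TPM (Salmon's measure of level, scaled to transcript length and to the library) in all 6 libraries, and Sfp33A2 had 1.10 TPM in 1 Lam-KD library and 0 in the others. CG44008 had 2.68, 1.58 and 2.19 TPM in Lam-KD testes, against 3.57, 2.91 and 3.78 TPM in control testes. These levels rested on 6 to 12 expected reads per library, too few for a test. CG14933 had 1.76, 3.81 and 4.51 TPM in Lam-KD testes, against 3.48, 7.0 and 4.51 TPM in control testes. CG42486 had 1.15, 0 and 0 TPM in Lam-KD testes, against 1.13, 3.55 and 0 TPM in control testes. The levels of CG14933 and CG42486 overlapped between the groups, and as these genes overlap each other on the same strand, their reads cannot be assigned with certainty. This region was thus silent or weakly expressed in both groups. The Pde1c span held 4 further gained LADs, and the first of these, 2L:11847001-11852100, contained the TSSs of the maltase genes Mal-B1 and Mal-B2.

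Other long gained LADs of 2L also held few or weakly expressed genes. CG42682, the gene with its TSS in 2L:14840401-14850900, was at 0 TPM in all 6 libraries, and 2L:7641901-7652400 held no TSS of the table. The gained LAD 2L:2125501-2134800, 9.3 kb long, held CG4259 and Glyp, which encodes glycogen phosphorylase. Glyp had 7.12, 7.03 and 5.64 TPM in Lam-KD testes, against 7.14, 7.16 and 3.67 TPM in control testes.

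In the study's gene classes, the 41 genes held a smaller share of ubiquitously expressed genes than the 2L table, as the genes in lost and constant LADs did, and about as many testis-specific genes. Ubiquitous were 5 of the 41 (12.2%, Wilson 95% interval 5.32% to 25.5%), against 586 of 1998 (29.3%) in the table, 12 of 101 (11.9%) in lost LADs and 7 of 226 (3.10%) in constant LADs. The 5 genes are CG2794, Glyp, vri, which encodes a transcription factor of the circadian clock, CG11034 and IP3K1, an inositol trisphosphate kinase. Testis-specific were also 5 of the 41 (12.2%), against 235 of 1998 (11.8%), and in constant LADs 58 of 226 genes (25.7%). All 5 belong to the Aly-dependent genes, with 165 of 1998 (8.26%) in the table. They are CG15824, CG31882, CG31867, CG13243 and Tektin-A, which encodes a filament protein of axonemes. None of the 41 was Aly-independent or testis-specific with expression starting in SpG, which allows a share of up to 8.57% (Wilson), and these classes held 24 and 43 genes of the table. The intervals cover counting error only, and because the table was available here only in part, no overlap was tested.

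By gene family, Cyp309a2 and Cyp4e3 were cytochromes P450, of which the table holds 12, and dpr3 encodes a neuronal cell-surface protein of the immunoglobulin superfamily, 1 of 13. No gene was a chemoreceptor (25 in the table), a cuticle protein (7), a transporter by symbol (4) or an odorant-binding protein (2). Genes known only by a CG number were 18 of the 41 (43.9%), the same share as in the table (43.9%). The 3 seminal fluid genes, of 21 in the table, were grouped after the genes had been seen, and all 3 lie in 1 LAD.

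The 2L genes with their TSS in gained LADs were weakly expressed as a group. In Lam-KD testes their median level was 1.67, 1.60 and 1.40 TPM, against 2.36, 1.38 and 1.59 TPM in control testes. These levels overlapped, and they were lower in each library than the medians of genes in constant LADs, which were 2.61 to 2.74 TPM in Lam-KD testes and 2.90 to 3.58 TPM in control testes. A low level was not particular to gained LADs. The 452 genes with their TSS in a LAD outside these 3 sets had medians of 1.25 to 1.32 TPM in Lam-KD testes and 1.27 to 1.51 TPM in control testes. Genes in lost LADs had medians of 10.2 to 12.3 TPM in Lam-KD testes and 8.20 to 9.84 TPM in control testes, and genes in inter-LADs of both stages had 23.2 to 25.5 TPM and 18.3 to 23.6 TPM in these groups. The medians of the 41 genes depended on the LAD with 9 TSSs, since the other 32 genes had a median of 2.53 TPM over the mean of the controls, compared with 1.56 TPM for all 41.

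The share of genes over 1 TPM gave the same order for gained LADs, constant LADs, lost LADs and inter-LADs of both stages. In the mean of the control libraries, 22 of the 41 genes (53.7%, Wilson 95% interval 38.7% to 67.9%) were over 1 TPM, and 9 (22.0%) were at 0. In constant LADs 137 of 226 genes (60.6%, 54.1% to 66.8%) were over 1 TPM, so that gained and constant LADs were not distinguishable at these numbers of genes. In lost LADs it was 68 of 101 genes (67.3%), and in inter-LADs of both stages 1043 of 1178 (88.5%, 86.6% to 90.2%). Among the 452 genes in LADs outside the gained, constant and lost sets it was 242 (53.5%), near the share in gained LADs. Without the LAD with 9 TSSs, 19 of 32 genes (59.4%, 42.3% to 74.5%) were over 1 TPM. The share in gained LADs was below that in inter-LADs with or without this LAD. By library it was 51.2% to 56.1% in gained LADs, against 87.3% to 89.1% in inter-LADs of both stages. The intervals cover counting error only and treat genes as independent, although several genes share a LAD.

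**Figure D4:**
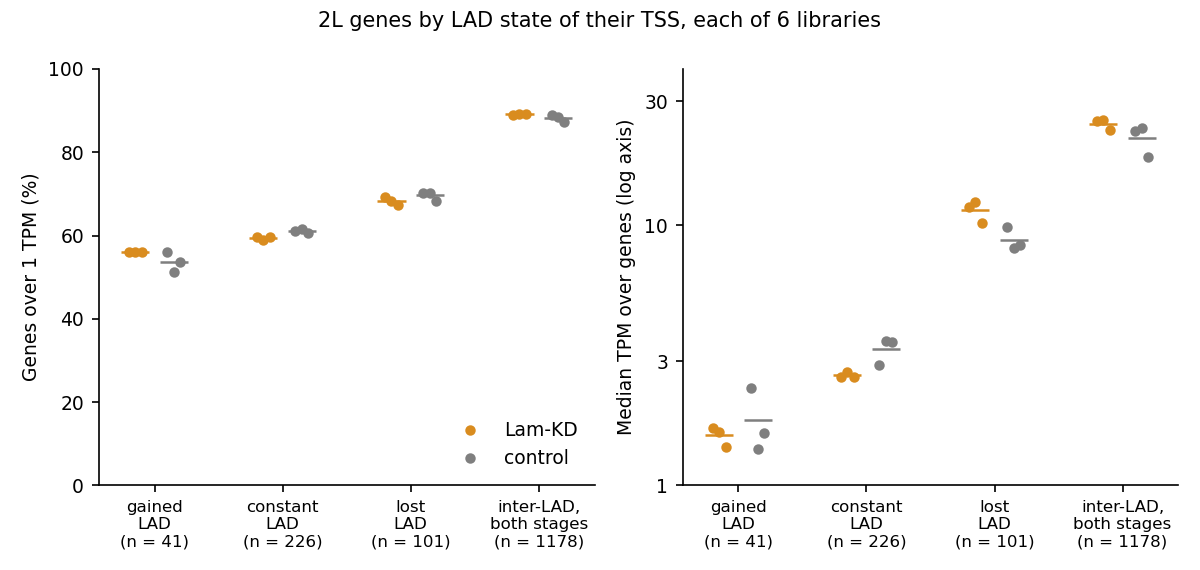
Percent of 2L genes over 1 TPM (left) and their median TPM on a log axis (right) by the LAD state of the TSS, in each of 3 Lam-KD (orange) and 3 control (grey) libraries, with lines for the group means. Medians lie between 1.38 and 2.36 TPM in gained LADs, between 2.61 and 3.58 TPM in constant LADs and above 18 TPM in inter-LADs of both stages.

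Some genes with their TSS in a gained LAD had high levels in whole testes, and 6 of the 41 were over 100 TPM in the mean of the controls. Taf12L (FBgn0031623) encodes a testis relative of a TFIID subunit, although the study's classes do not list it as testis-specific. It had 458, 443 and 457 TPM in Lam-KD testes, against 389, 382 and 261 TPM in control testes. Its TSS lay 184 bp inside the edge of a 7.5-kb gained LAD, 2L:4701301-4708800, which lies in the span of dcma. The groups did not overlap, with a log2 fold change of 0.27 (SE 0.100) that did not pass the test (Benjamini-Hochberg adjusted *P* = 0.0916, edgeR). The microtubule regulator stai (FBgn0266521) had 156, 162 and 153 TPM in Lam-KD testes, against 164, 168 and 158 TPM in control testes, and its TSS was in a gained LAD of 1.2 kb, 476 bp from the edge. Its groups overlapped. CG2794 (FBgn0031265) had 73.0, 75.5 and 74.4 TPM in Lam-KD testes, against 69.0, 73.9 and 64.8 TPM in control testes, which overlapped as well.

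The Aly-dependent genes were among the most expressed. CG31882 (FBgn0051882) had 189, 231 and 234 TPM in Lam-KD testes, against 243, 261 and 305 TPM in control testes, without overlap (log2 fold change -0.41, Benjamini-Hochberg adjusted *P* = 0.0634, edgeR). CG13243 (FBgn0028903) and Tektin-A (FBgn0028902) had neighbouring TSSs in the same 4.5-kb gained LAD, 2L:15852001-15856500. CG13243 had 145, 150.0 and 148 TPM in Lam-KD testes, against 169, 174 and 195 TPM in control testes. Tektin-A had 101, 98.2 and 112 TPM in Lam-KD testes, against 113, 117 and 144 TPM in control testes. All Lam-KD values of this pair were below the control values, yet the differences were small. CG15824 (FBgn0031292) had 26.1, 26.4 and 25.1 TPM in Lam-KD testes, against 24.1, 26.0 and 27.6 TPM in control testes, which overlapped. Distances of these TSSs to the LAD edge were 159 bp for CG15824, 215 bp for CG31882, 591 bp for CG13243 and 2125 bp for Tektin-A, so that CG15824 and CG31882 lie within 1 bin of the edge, as does Taf12L, and a boundary has no better precision than that.

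The Lam-KD libraries were compared with the controls to ask how the levels of these genes differ when both lamins are reduced. The knockdown was seen in the targets, as Lam had a log2 fold change of -2.50 (SE 0.0939) and LamC of -1.76 (SE 0.144). Libraries held 6715297 to 7437111 expected reads in Lam-KD and 5651960 to 6853903 in control. Control replicate 3 stood apart, since chi-square divided by its degrees of freedom was 12.2 and 11.5 between its counts and those of the other controls, 5.08 between the other two and 2.29 to 3.99 among Lam-KD libraries. Summed germline markers (9 of the 11 listed were found) had 617 to 624 TPM in Lam-KD, against 476 to 594 TPM in control. Of these, only sa, mia and comr were higher in every Lam-KD library than in every control. The levels of sa were 194, 196 and 210 TPM, against 154, 164 and 131 TPM. The other germline markers overlapped, among them twe with 123 to 129 TPM, against 127 to 140 TPM. Summed somatic cyst and hub cell markers (5 genes) had 46.2 to 50.1 TPM against 36.1 to 44.6 TPM, and of these eya and Fas3 overlapped. Summed fat body markers (7 genes) overlapped, with 4783 to 7688 TPM in Lam-KD and 5926 to 8888 TPM in control. Within this list Adh was higher in every Lam-KD library, with 51.0 to 101 TPM against 9.24 to 35.9 TPM. Lsp1gamma was lower in each, with 919 to 1354 TPM against 1593 to 2031 TPM, and the other fat body markers overlapped. No marker that was found was at 0 in all libraries. The part of these marker shifts in the results below was not tested, and in bulk RNA fewer cells of a type and less RNA per cell cannot be told apart. RNAi lines and the knockdown cannot be told apart either, since no control carried a hairpin.

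The share of genes in gained LADs that were called upon Lam-KD was near that of all genes tested. Of the 41 genes, 23 reached 10 expected reads in no fewer than 3 of the libraries and could be tested, and 18 could not. A call required a Benjamini-Hochberg adjusted *P* under 0.05 in edgeR's quasi-likelihood test over all genes and a change of mean TPM by more than 1.5-fold. None of the 23 was called higher and 2 were called lower (8.70%), Cyp4e3 and CG31867, beside 6.41% called among all 10318 genes tested (3.19% higher and 3.22% lower). With 23 genes, this share is near the background. At an unadjusted *P* under 0.05 and the same fold, the count was 0 higher and 3 lower, and DESeq2 gave 0 and 2. The TPM of Lam-KD libraries lay wholly apart from that of controls in 9 of the 23 (39.1%), beside 37.1% of all genes tested. The log2 fold change was negative for 16 and positive for 7, with a median of -0.14, against 0.01 over all genes tested.

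Cyp4e3 (FBgn0015035), a cytochrome P450, had 1.55, 1.24 and 1.40 TPM in Lam-KD testes, against 18.4, 31.4 and 93.6 TPM in control testes. All Lam-KD libraries were far below all controls, and the controls spread widely, with the highest value in replicate 3. The log2 fold change was -5.22 (SE 0.696, Benjamini-Hochberg adjusted *P* = 0.00111, edgeR), and it was -4.14 without control replicate 3 (adjusted *P* = 1.31e-08, edgeR). The gene runs on the minus strand from 2L:9747839-9750071 and its whole span was inside the 5.1-kb gained LAD 2L:9746701-9751800, with the TSS 1729 bp from the edge.

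CG31867 (FBgn0051867), one of the Aly-dependent genes, had 63.4, 62.8 and 67.7 TPM in Lam-KD testes, against 121, 122 and 161 TPM in control testes. The groups were clearly separated, and the values within Lam-KD were close to each other. Its log2 fold change was -1.15 (SE 0.167, Benjamini-Hochberg adjusted *P* = 0.0018, edgeR). The gene, at 2L:11144579-11145417 on the minus strand, lay wholly in the 6.0-kb gained LAD 2L:11139901-11145900, which in turn lies inside the span of Gyc32E, a guanylyl cyclase gene. Of the 5 Aly-dependent genes in gained LADs it was the only one called. CG13243 passed the adjusted *P* but not the fold (log2 fold change -0.38, Benjamini-Hochberg adjusted *P* = 0.0444, edgeR), and CG31882, Tektin-A (adjusted *P* = 0.0952, edgeR) and CG15824 (adjusted *P* = 0.399, edgeR) passed neither.

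In the other direction, IP3K1 (FBgn0032147) had 108, 120 and 98.7 TPM in Lam-KD testes, against 82.0, 95.2 and 65.1 TPM in control testes. The groups did not overlap, and the adjusted *P* passed the threshold but the fold did not (log2 fold change 0.36, SE 0.101, Benjamini-Hochberg adjusted *P* = 0.0426, edgeR). The remaining tested genes had log2 fold changes between -0.81 for uncNacbeta (adjusted *P* = 0.124, edgeR), and 0.12 for vri (adjusted *P* = 0.654, edgeR).

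**Figure D5:**
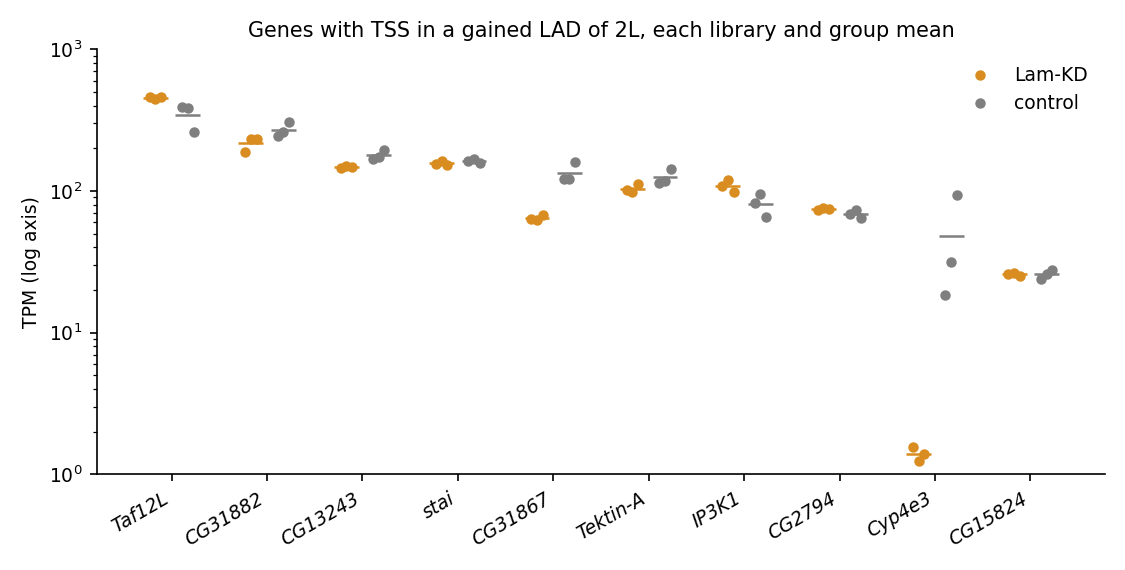
TPM on a log axis of 10 genes with TSS in a gained LAD of 2L, in each of 3 Lam-KD (orange) and 3 control (grey) libraries, with lines for the group means. Cyp4e3 (1.24 to 1.55 against 18.4 to 93.6 TPM) and CG31867 (62.8 to 67.7 against 121 to 161 TPM) show the clearest separation, and the other genes lie within small distances of their controls.

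Gained LADs without a TSS often lay inside long genes. The 27 that were inside a gene span belonged to 21 genes with a median span of 33.1 kb, against 2.04 kb for the 1998 genes of the table. A long gene is more likely to contain a LAD by construction, so the lengths are no finding. The median level of these host genes was 0.864 TPM in the mean of the controls, against 12.4 TPM for the table, and 9 of the 21 were over 1 TPM. Apart from Pde1c, CG9932 held 3 gained LADs, and Nlg2, CG4168 and vir-1 held 2 each. Other hosts encode ion channels or receptors, such as Piezo, a mechanosensitive channel, and nAChRalpha6, or regulators of transcription, such as Ets21C, sens-2 and dsf.

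Among the hosts, 17 could be tested and 3 were called upon Lam-KD, beside 6.41% called among all genes tested, and these were picked out after their values had been seen. Nlg2, which encodes a neuroligin, had 1.96, 1.42 and 1.60 TPM in Lam-KD testes, against 2.74, 2.72 and 2.89 TPM in control testes (log2 fold change -0.83, Benjamini-Hochberg adjusted *P* = 0.0102, edgeR). DIP-kappa, which encodes a neuronal binding partner of Dpr proteins, had 0.481, 0.643 and 0.942 TPM in Lam-KD testes, against 1.64, 1.61 and 2.04 TPM in control testes (log2 fold change -1.40, Benjamini-Hochberg adjusted *P* = 0.0184, edgeR). Both were lower in every Lam-KD library than in every control. The call for eys (log2 fold change 1.63, Benjamini-Hochberg adjusted *P* = 0.0333, edgeR) rested on 0.326 to 0.459 TPM in Lam-KD testes, against 0.0392 to 0.183 TPM in control testes, and is uncertain because eys shares its span with CG9967. Pde1c, with 5 gained LADs in its span, had 10.3, 9.79 and 9.80 TPM in Lam-KD testes, against 9.45, 10.5 and 7.78 TPM in control testes, which overlapped (adjusted *P* = 0.984, edgeR).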

How the data were processed

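The authors deposited LAD positions on dm3/R5, as 1 list per stage with no score. Behind them are unique reads mapped with bowtie2 and counted with HTSeq-count in 300-bp bins, the merging of 2 replicates, the ratio of Dam-Lam to Dam on a log2 scale, and a 2-state HMM that assigned bins to LADs (versions not given in the sources used here). Coverage, distances and counts were computed from these positions, and no test was made over regions. As RNA-seq data the authors deposited Salmon's expected counts for 13776 genes of BDGP5.78, not normalized, and TPM values from the same run. Expected counts were rounded and tested with edgeR 4.0.16 (R 4.3.3, TMM, quasi-likelihood, two-sided, Lam and LamC left out), with DESeq2 1.42.0 as an alternative. SE was derived from the log2 fold change and the *F* statistic. The labels number the RNA-seq libraries as biological replicates. Separate crosses are not stated. TSSs and gene classes came from the study's supplementary gene table, of which only part of 2L was available here. Members, lists and tests were chosen with earlier results of these data known. The counts of LADs kept after joining, the proximal shares under joined or widened lists and the values without the LAD with 9 TSSs were added after seeing the data. Named regions were the 3 longest gained LADs per arm and those nearest to the 10% limit. Named genes were those called, the 8 highest in control, those in the 5 longest gained LADs of 2L and the testis-specific ones, and others were named after their values were seen. Python 3.11.15, pandas 2.3.3 and scipy 1.17.1 were used, and scripts were tested on simulated data.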

Additional observations from a re-analysis of the deposited data

How the results depend on the processing

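The number of gained LADs (398) was 680 with LADs of 300 bp or longer and 226 with LADs up to 1200 bp apart joined, and lay between 283 and 532 under the 5 remaining rules. Their length (1.45 Mb) was 1.55 Mb from 300 bp, 1.33 Mb from 1800 bp, 1.24 Mb at 0% coverage, 2.41 Mb under 25% coverage, 1.22 and 1.07 Mb with LADs up to 300 or 1200 bp apart joined, and 1.24 Mb with SpG LADs widened. Their median length (2.7 kb) was 1.2 kb from 300 bp, 3.6 kb from 1800 bp, 3.3 kb under 25% coverage and 3.6 kb with LADs up to 1200 bp apart joined. Under 25% coverage, 63 genes had their TSS in a gained LAD, in place of 41. Their median control level (1.56 TPM) was 1.77 to 2.34 TPM with 1 control left out. The share over 1 TPM (53.7%) was 50% from 1800 bp, 51.1% with TSSs within 300 bp, 51.2% to 53.7% with 1 control left out, 58.5% over 0.5 TPM and 34.1% over 5 TPM. Without a fold threshold, 548 genes were higher and 757 lower, and among genes in gained LADs 1 was higher, IP3K1, and 3 were lower. With at least 50 reads, 207 genes were lower in place of 332. With 1 library left out, 145 to 495 genes were higher and 183 to 325 lower, in edgeR. The fewest came without Lam-KD replicate 1 (145 and 183), and without control replicate 2 it was 495 higher. The 2 lower calls in gained LADs, Cyp4e3 and CG31867, were made in every fit. CG2794 changed sign, with -0.015 without Lam-KD replicate 3, -0.010 without control replicate 1 and up to 0.039 without control replicate 3, and it was called in no fit. Of the named genes' other values, 149 kept their direction and their call by *P* and fold together. The adjusted *P* alone crossed 0.05 in some fits, among others for CG13243 and IP3K1 with a library left out, for CG31882 in DESeq2 and for Taf12L with the replicate block.

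Whether replicate numbers of Lam-KD and control pair could not be settled. Correlations of deviations were low but positive for equal numbers (0.066, 0.079 and 0.216) and lay between -0.183 and 0.133 for unequal numbers. Lam-KD replicate 2 correlated best with control replicate 1 (0.133). With the replicate number as a block, 423 genes were higher and 404 lower, in place of 329 and 332. The calls in gained LADs were again 0 higher and 2 lower.

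LAD lists from merged replicates without scores leave the error of each boundary unknown beyond the 300-bp bin. Of 41 genes, 18 had too few reads for a test.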

Other observations

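The same rule gave 140 gained LADs of 1836 SpC LADs on the X chromosome (7.63%), with a median length of 1.8 kb, and none of 21 on chromosome 4. Among autosomal SpC LADs of 300 and 600 bp, which the length limit leaves out, 282 of 760 (37.1%) were covered by SpG LADs to less than 10%.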
